A study of Drosophila melanogaster with 24 samples.

Results

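The 10 genes described here are known regulators or markers of intestinal stem cells and of enteroblasts in the adult fly midgut. They are Delta (Dl), Notch (N), sanpodo (spdo), escargot (esg), Sox21a, Sox100B, klumpfuss (klu), zfh2, scute (sc) and miranda (mira). They were listed by name for their known roles in the tissue, at a time when earlier results of these data were known, and no measured value entered the rule. They are 10 of the 17861 genes with a FlyBase identifier in the tables. All 10 were found by symbol.

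An intestinal stem cell of the fly divides to renew itself and to give a daughter that leaves the stem cell state. Delta on the stem cell binds the receptor Notch on the daughter, and strong Notch signalling turns that daughter into an enteroblast, which matures into an absorptive enterocyte. Daughters with weak Notch signalling and a pulse of the proneural factor Scute become secretory enteroendocrine cells. The transcription factor Escargot, a zinc finger protein of the Snail family, keeps stem cells and enteroblasts from differentiating.

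The study sequenced fly RNA in 24 libraries that form 7 groups. It sets aged against young gut progenitors, and it alters ADAR, which edits adenosines in RNA, and Zn72D, a zinc finger protein. The 3 midgut groups have 4 libraries each. They are 10-day flies with an RNAi knockdown of Adar, 30-day flies expressing lacZ and 10-day flies expressing lacZ, a bacterial enzyme used as a control. All 3 carry the temperature-sensitive esg driver, so that the knockdown is aimed at esg-expressing stem cells and enteroblasts and the transgenes in all 3 groups depend on one of the genes measured here. The other 4 groups have 3 libraries each and are labelled whole organism. They are a Zn72d knockdown with its control and an overexpression of ADAR E374A, described as an ADAR mutant, with its control, where the design text places the change in the midgut and the labels give neither age nor driver. A single protocol text, of FACS-sorted midgut progenitors, is given for every library. No label says that replicates are separate flies, so each p-value reflects the spread among the libraries at hand, and that spread may be technical.

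The members are spread over the genome. In dm6 coordinates esg (FBgn0001981) lies on chromosome 2L from 15333866 to 15336138, Sox21a (FBgn0036411) on 3L from 14103481 to 14108118 and klu (FBgn0013469) on 3L from 10981171 to 11009188. On 3R lie Dl (FBgn0000463, 19302731 to 19326217), mira (FBgn0021776, 19931799 to 19935120), spdo (FBgn0260440, 30476684 to 30478849) and Sox100B (FBgn0024288, 31065253 to 31083407). N (FBgn0004647, 3134870 to 3172221) and sc (FBgn0004170, 396060 to 397497) are on the X chromosome, and zfh2 (FBgn0004607, 501810 to 540874) is on chromosome 4. For 4 of them reads of another gene could enter the value, and how far they do was not tested. Of these, mira lies inside an intron of Hs6st and spdo inside an intron of PH4alphaEFB, each on the same strand as the gene around it, so that unspliced reads of that gene could not be separated by strand. In addition, sc lies inside an intron of CG32816 on the opposite strand, and zfh2 shares 2325 exonic bases with Thd1 on the opposite strand, and the strand setting of the authors' counting is not given in the sources used here. The values of these 4 members are uncertain to that extent.

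Levels are given in TPM, the deposited abundance per gene corrected for gene length, so that levels of different genes in a library can be set side by side. The total over annotated genes was not fixed in the midgut tables. It ran from 881199 TPM (Adar knockdown replicate 2) to 984051 TPM (10-day lacZ replicate 3). The members differed widely in level in the midgut libraries. The median over the 12 midgut libraries was 335 TPM for esg, 274 TPM for Sox100B, 165 TPM for mira, 108 TPM for Sox21a and 97.1 TPM for klu. It was 38.0 TPM for N, 33.5 TPM for zfh2, 20.9 TPM for spdo, 4.46 TPM for Dl and 1.96 TPM for sc. In the 11 other libraries deposited in the second table format, the median was 18.3 TPM for esg, 8.30 TPM for mira, 1.56 TPM for N, 1.61 TPM for Dl and 0.222 TPM for spdo. The ratio of the 2 medians ran from 2.77 for Dl to 94.0 for spdo, with 18.4 for esg and 30.0 for Sox100B, against a median of 1.57 over all genes with a mean of at least 1 TPM. For 8 of 10 members, all but Dl and sc, every midgut library lay above every one of those 11 libraries, which held for 29.6% of all genes. Of those 11 libraries the 3 titled E374A overexpression repeat the Zn72d controls, so that 8 are distinct. Over the 8, the ratio was 48.5 for spdo, 19.0 for esg, 25.4 for Sox100B and 2.88 for Dl, and again 8 of 10 members did not overlap. The 2 formats differ in how the table was built, so these levels were compared without a test.

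**Figure D1:**
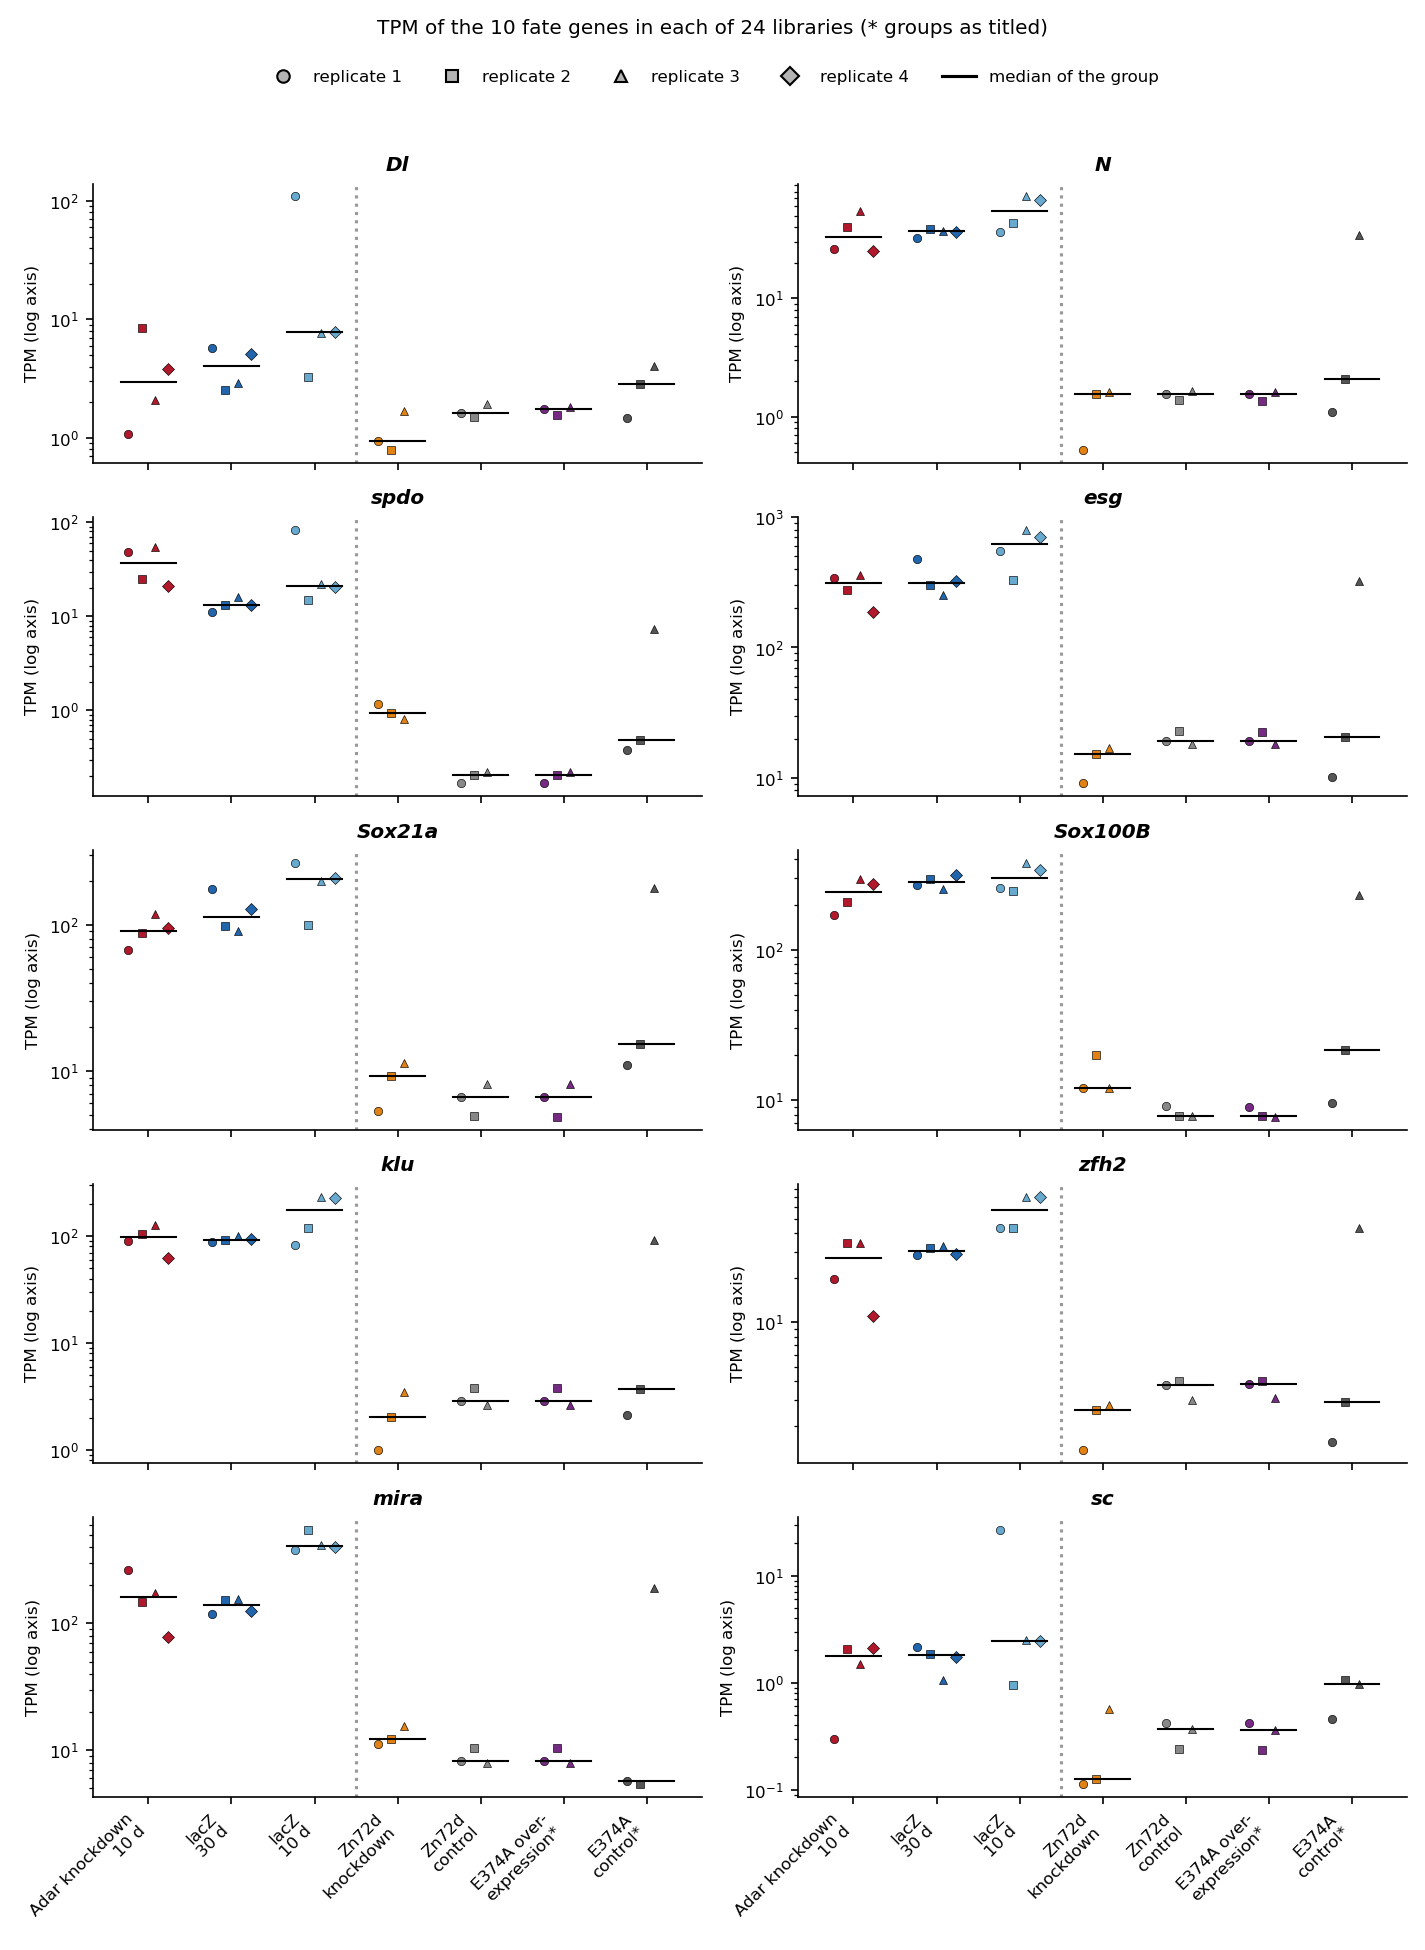
TPM of each of the 10 members in every library, on a log axis, with 1 symbol per replicate number and a bar at the median of the group. Groups to the right of the dotted line are labelled whole organism, and the asterisk marks the groups whose titles go against their Adar level. The 12 midgut libraries lie above the others for all members but Dl and sc, the library titled E374A control 3 lies among the midgut libraries for all members but spdo, and lacZ 10-day replicate 1 stands apart in Dl, spdo and sc.

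The order of the levels was alike at its ends in the 3 midgut groups. By group median, esg was the highest member in each group, Dl the ninth and sc the tenth. In Adar knockdown libraries esg (189 to 360 TPM) was followed by Sox100B (171 to 299 TPM) and mira (77.6 to 263 TPM), with overlapping ranges down to Sox21a (66.7 to 118 TPM). In 30-day lacZ libraries esg (252 to 481 TPM) and Sox100B (253 to 314 TPM) overlapped, and mira (119 to 155 TPM), Sox21a (90.9 to 176 TPM) and klu (87.1 to 99.8 TPM) lay below both. In 10-day lacZ libraries mira (381 to 543 TPM) stood second, overlapping esg (327 to 802 TPM) and lying above Sox100B (247 to 378 TPM) in every library. Further down, zfh2 stood above N in the 10-day lacZ group and N above zfh2 in both other groups, with overlapping ranges of the pair in each. For 9 of 10 members the 10-day lacZ group had the highest median of the 3, and for spdo it was the Adar knockdown group.

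Some libraries stand apart or go against their labels. Replicate 1 of the 10-day lacZ group had 110 TPM of Dl, 83.6 TPM of spdo and 26.7 TPM of sc, while replicates 2 to 4 had 3.23 to 7.90 TPM of Dl, 14.9 to 21.9 TPM of spdo and 0.947 to 2.49 TPM of sc. In the same library the 15 enteroendocrine markers summed to 3090 TPM, against 635 to 695 TPM in replicates 2 to 4, with all 15 over 1 TPM, pros at 26.9 TPM and Tk at 1108 TPM. Its 6 fat body and yolk markers summed to 150 TPM, against 0.790 to 1.92 TPM in replicates 2 to 4. Replicates 3 and 4 of that group were close to each other in every member. In the E374A set, Adar stood at 14.5 to 17.2 TPM in libraries titled overexpression. It stood at 879, 801 and 31.5 TPM in libraries titled control 1, 2 and 3, so the titles go against the Adar level. The value of control 3 lay within the range of the lacZ midgut libraries (19.5 to 45.7 TPM). Library 3 titled E374A control had 323 TPM of esg and resembled the midgut libraries, and each library titled E374A overexpression shared 82.4% to 82.6% of its gene coverages with the same-numbered Zn72d control (equal within 0.1%). Depth, estimated as aligned bases from the deposited coverage, ran from 3.40 to 7.66 gigabases.

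**Figure D2:**
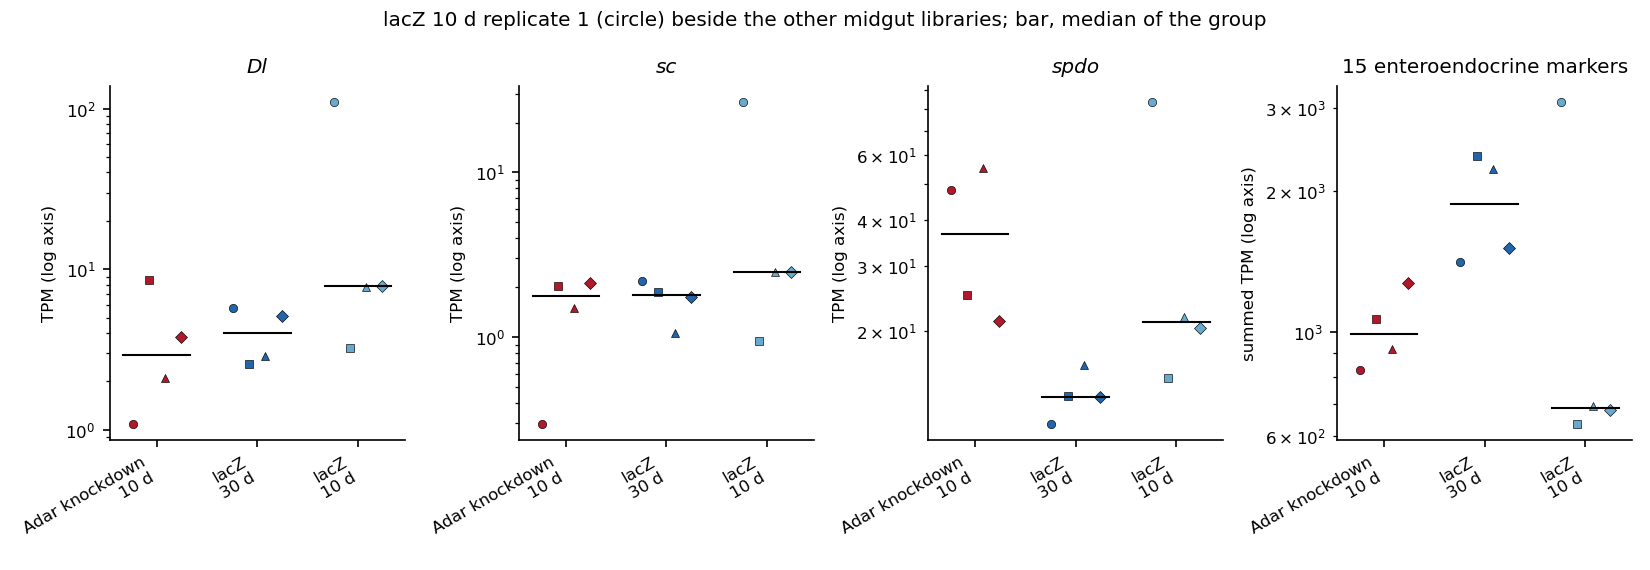
TPM of Dl, sc and spdo and the summed TPM of 15 enteroendocrine markers in the 12 midgut libraries, on log axes, with 1 symbol per replicate number and a bar at the median of the group. Replicate 1 of the 10-day lacZ group (circle) lies above every other midgut library in all 4 panels.

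The comparison of 30-day with 10-day lacZ flies asks how the fate genes differ between aged and young progenitors. All 10 members had a log2 fold change below 0, as had 69.6% of all 8742 genes tested, whose median was -0.32. By limma on log2(TPM + 1), with Benjamini-Hochberg adjustment over all genes and a threshold of 0.05, only mira was called, and it was lower. Over all genes, 19.6% were called, 4.23% as higher and 15.4% as lower, so 1 of 10 members is no more than the background. In a bulk measurement, fewer cells of a type and less RNA per cell cannot be told apart, here and in the comparisons that follow.

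Miranda is an adaptor that carries cell fate determinants to one side of dividing neural stem cells in the fly. In 30-day lacZ libraries mira had 119, 154, 155 and 125 TPM, and in 10-day lacZ libraries 381, 543, 418 and 398 TPM. All aged libraries lay well below all young ones. The log2 fold change was -1.64 ± 0.29 (SE, adjusted p = 0.0056), or -1.32 relative to the median gene, and mira was called in 8 of 8 fits that left out 1 library and in 12 of 12 other settings. Hs6st, the gene around mira, had 7.83 to 15.1 TPM in 30-day and 12.996 to 20.2 TPM in 10-day libraries and was not called (log2 fold change -0.33 ± 0.27, adjusted p = 0.38). The ratio of mira to Hs6st was 8.31 to 15.1 in 30-day libraries and 25.6 to 29.3 in 10-day libraries, again without overlap.

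Among the Notch members, Dl had 5.76, 2.55, 2.89 and 5.13 TPM in 30-day lacZ libraries and 110, 3.23, 7.72 and 7.90 TPM in 10-day lacZ libraries. Aged replicates 1 and 4 lay within the range of young replicates 2 to 4, aged replicates 2 and 3 lay just below it, and young replicate 1 lay far above all. The log2 fold change was -1.50 ± 0.79 (adjusted p = 0.18) with all libraries and -0.50 without that replicate. The receptor N had 32.7 to 38.5 TPM in 30-day and 36.3 to 73.1 TPM in 10-day libraries (log2 fold change -0.53 ± 0.28, adjusted p = 0.17). Sanpodo, a membrane protein needed for Notch signalling between daughters of asymmetric divisions, had spdo at 11.2 to 16.2 TPM in 30-day and 14.9 to 83.6 TPM in 10-day libraries, an overlap of the 2 groups (log2 fold change -0.99 ± 0.45, adjusted p = 0.12).

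The transcription factors had log2 fold changes of different sizes, and none was called. The 2 groups did not overlap for zfh2, which codes for a zinc finger homeodomain factor. It had 28.5, 31.6, 32.7 and 29.1 TPM in 30-day and 43.6, 43.7, 70.5 and 70.3 TPM in 10-day libraries, with a log2 fold change of -0.84 ± 0.32 (adjusted p = 0.070). Thd1, the gene that shares exonic bases with it, did not overlap either, at 16.2 to 33.8 TPM in 30-day and 39.2 to 57.1 TPM in 10-day libraries (log2 fold change -0.82 ± 0.28, adjusted p = 0.051). With mira this makes 2 of 10 members whose groups did not overlap, against 28.7% of all genes (22.9% lower and 5.77% higher). The progenitor factor esg had 481, 302, 252 and 323 TPM in 30-day and 547, 327, 802 and 703 TPM in 10-day libraries, which overlap, with a log2 fold change of -0.77 ± 0.29 (adjusted p = 0.076). It was called without 30-day replicate 1 (adjusted p = 0.047) and without 10-day replicate 2 (adjusted p = 0.022), and Sox21a was called without 10-day replicate 2 (adjusted p = 0.032). For klu, which in the fly restrains enteroendocrine fate in enteroblasts, the log2 fold change was -0.70 ± 0.31 (adjusted p = 0.12), and without young replicate 1 it was -0.99 and called (adjusted p = 0.029).

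Sox21a, needed for enteroblasts to differentiate, had a log2 fold change of -0.60 ± 0.30 (adjusted p = 0.15). Sox100B, a Sox factor also needed for differentiation, was the member closest to no change, with 272, 298, 253 and 314 TPM in 30-day and 258, 247, 378 and 340 TPM in 10-day libraries. The aged range lay within the young one. Its log2 fold change was -0.09 ± 0.21 (adjusted p = 0.78), and 0.21 after median-ratio scaling of the libraries, so its direction depends on the scaling. Scute, the proneural factor, was low throughout, with sc at 1.06 to 2.18 TPM in 30-day libraries and 0.947 to 2.49 TPM in 10-day replicates 2 to 4, and its log2 fold change of -0.91 ± 0.64 (adjusted p = 0.31) became -0.10 without replicate 1.

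Other lists were read beside the members. Of 20 tested genes of the Notch core machinery, none was called higher and 4 were called lower with age, among them O-fut1, the fucosyltransferase that modifies Notch (1.58 ± 1.22 TPM in 30-day and 9.26 ± 2.42 TPM in 10-day libraries, SD with n = 4 each, and a log2 fold change of -2.07 ± 0.38, limma adjusted p = 0.0061), and rumi, the Notch glucosyltransferase (log2 fold change -0.98 ± 0.21, adjusted p = 0.0096). The list had a median log2 fold change of -0.55, against -0.32 over all genes, and 15.4% of all genes were called lower, which is also the share to read beside the list counts that follow. After median-ratio scaling, O-fut1 and rumi were still called lower, and fng and Nedd4 were called higher. Of 10 tested Notch target genes, E(spl)m3-HLH (log2 fold change -1.31 ± 0.33, adjusted p = 0.019) and E(spl)malpha-BFM (-1.03 ± 0.26, adjusted p = 0.018) were called lower and none higher, with a list median of -0.24. After median-ratio scaling, which moved the median of all genes to -0.05, no Notch target was called. Of 20 genes of asymmetric division and polarity, pon (log2 fold change -1.73 ± 0.45, adjusted p = 0.021), mud and par-6 were called lower, and none was after median-ratio scaling. The list of proneural and enteroendocrine commitment genes had 0 of 10 called.

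Markers of other midgut cells moved in the same comparison. The 15 enteroendocrine markers summed to 1409 to 2369 TPM in 30-day libraries, against 635 to 695 TPM in 10-day replicates 2 to 4 and 3090 TPM in replicate 1. None of the 15 was at 0 in any midgut library. Of 14 tested, 3 were called higher with all libraries, against 4.23% of all genes, and 10 without replicate 1, against 383 of 8718 genes. The 15 enterocyte markers summed to 728 to 1629 TPM in 30-day and 435 to 811 TPM in 10-day libraries, and 4 of 14 tested were called higher. The 6 fat body and yolk markers summed to 6.95 to 36.4 TPM in 30-day libraries, against 0.790 to 1.92 TPM in 10-day replicates 2 to 4 and 150 TPM in replicate 1. Of these markers Fbp1 was called higher with all libraries, and Yp3 alone without replicate 1. Of 5 neuron markers tested, futsch and brp were called higher, and brp alone without 10-day replicate 1. The part of these cells in the member values was not tested.

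The comparison of Adar knockdown with lacZ flies, both at 10 days, asks what loss of the editing enzyme in progenitors does to the fate genes. Adar had 7.78 to 23.5 TPM in knockdown libraries and 29.2 to 45.7 TPM in lacZ libraries (log2 fold change -1.40 ± 0.31, adjusted p = 0.013). Of 10 members 4 were called, all lower: mira, zfh2, Sox21a and esg. Over all 8742 genes, 19.7% were called, 3.73% as higher and 16% as lower, and the median log2 fold change was -0.39. Of the members 9 had a log2 fold change below 0, against 73.8% of all genes. After median-ratio scaling of the libraries, which moved the median gene to -0.05, only mira of the 4 was still called. There 560 of 8735 genes were called. With annotated genes rescaled to the same sum in each library, the median gene was at -0.29, and 2 members and 1041 of 8823 genes were called.

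For mira the Adar knockdown libraries had 263, 149, 174 and 77.6 TPM, against 381, 543, 418 and 398 TPM in 10-day lacZ libraries. Every knockdown library was lower than every lacZ library. The log2 fold change was -1.50 ± 0.29 (adjusted p = 0.0090), called in 8 of 8 fits without 1 library and in 12 of 12 other settings. Here Hs6st was called lower as well (log2 fold change -0.80 ± 0.27, adjusted p = 0.049), and the ratio of mira to Hs6st overlapped, at 11.8 to 28.5 in knockdown and 25.6 to 29.3 in lacZ libraries.

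For zfh2 the Adar knockdown libraries had 19.8, 34.2, 34.3 and 10.99 TPM, against 43.6, 43.7, 70.5 and 70.3 TPM in lacZ libraries. These groups did not overlap either, as for 2 of 10 members and 22.2% of all genes (18.3% lower and 3.91% higher). The log2 fold change was -1.26 ± 0.32 (adjusted p = 0.020), called in 6 of 8 fits without 1 library, the exceptions being those without lacZ replicate 3 or 4. Thd1, which shares exonic bases with zfh2 on the opposite strand, was called lower too (log2 fold change -1.31 ± 0.28, adjusted p = 0.011), and reads of the pair cannot be told apart where strand was not used.

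The groups overlapped for both other called members. The esg level was 344, 278, 360 and 189 TPM in Adar knockdown and 547, 327, 802 and 703 TPM in lacZ libraries, with a log2 fold change of -0.99 ± 0.29 (adjusted p = 0.034), called in 4 of 8 fits without 1 library. The Sox21a level was 66.7, 87.6, 118 and 94.3 TPM in knockdown and 263, 99.2, 200 and 210 TPM in lacZ libraries, with a log2 fold change of -1.01 ± 0.30 (adjusted p = 0.034), called in 2 of 8. In both genes lacZ replicate 2 lay near the knockdown values. When lacZ replicates 3 and 4 were averaged as 1 sample, mira was the only member called, and 439 of 8769 genes were. Without lacZ replicate 1, the called members were mira, zfh2, esg and klu (log2 fold change of klu -0.99, adjusted p = 0.023, against -0.70 ± 0.31 and 0.11 with all libraries). In that fit 2090 of 8718 genes were called, 1694 of them lower.

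The other members did not pass the test. The log2 fold change was -0.59 ± 0.28 for N (adjusted p = 0.13), -0.37 ± 0.21 for Sox100B (0.20), -1.74 ± 0.79 for Dl (0.12) and -1.10 ± 0.64 for sc (0.21). Without lacZ replicate 1 the values for Dl and sc were -0.74 and -0.28. Unlike these, spdo had a log2 fold change above 0, at 0.32 ± 0.45 (adjusted p = 0.61), and 0.84 without lacZ replicate 1 (adjusted p = 0.063).

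**Figure D3:**
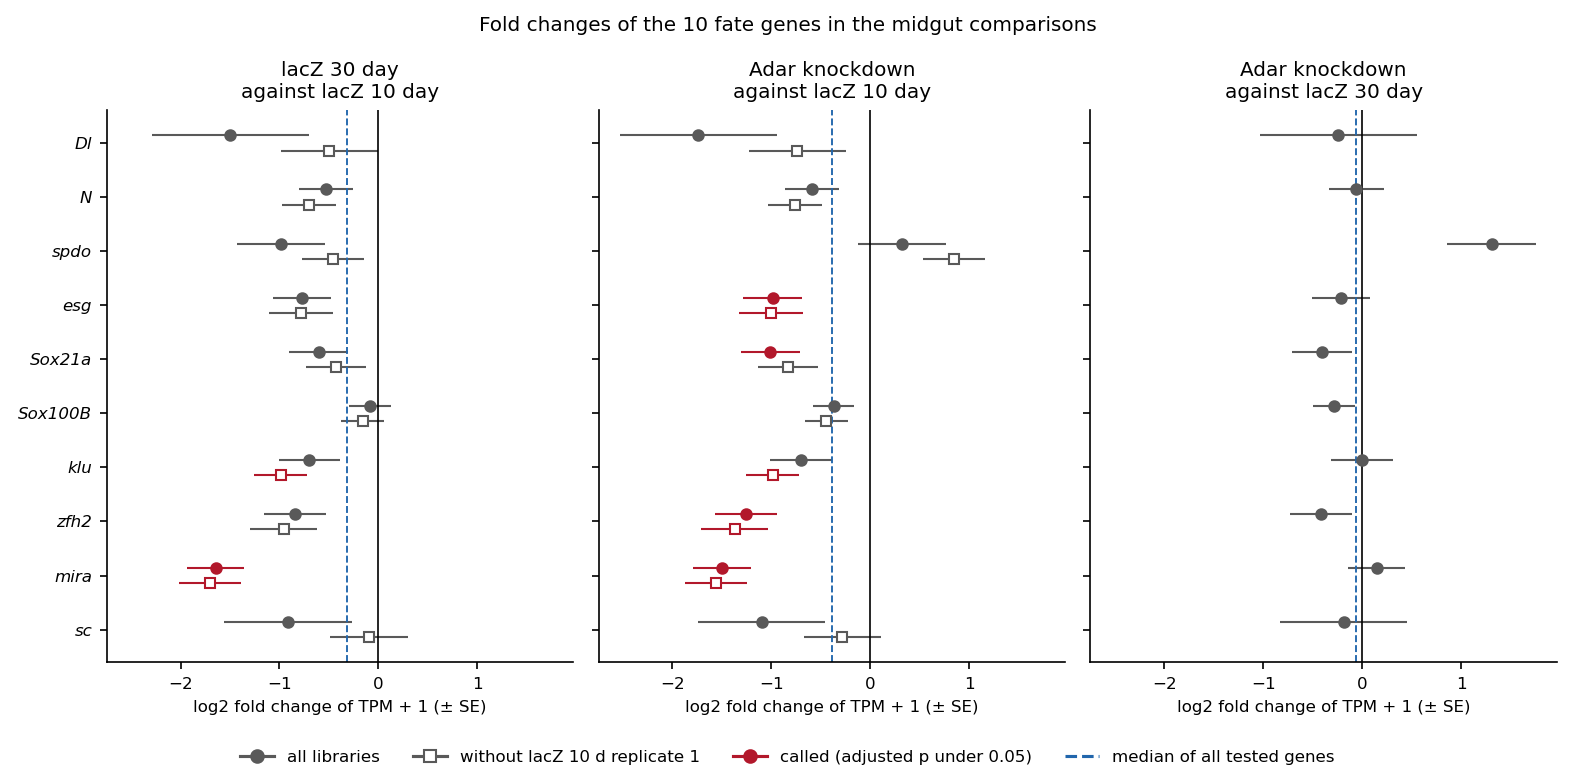
Log2 fold change of TPM + 1, with its standard error, for each member in the 3 midgut comparisons, with all libraries (circles) and without 10-day lacZ replicate 1 (squares). Red marks values called at an adjusted p under 0.05, and the dashed line is the median of all tested genes. Against 10-day lacZ flies mira is called in both comparisons with and without replicate 1, while Dl, sc and spdo move most when that library is left out.

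Of 20 tested genes of the Notch core machinery, 8 were called lower in Adar knockdown against 10-day lacZ libraries and none higher, with a list median of -0.76, against 16% of all genes called lower and a median of -0.39. They included O-fut1 (log2 fold change -1.97 ± 0.38, adjusted p = 0.0087) and mam, which codes for the Notch coactivator Mastermind (-1.68 ± 0.50, adjusted p = 0.034). After median-ratio scaling O-fut1 and rumi were called lower and no other gene of the list. Of 10 Notch target genes, E(spl)malpha-BFM alone was called (log2 fold change -0.78 ± 0.26, adjusted p = 0.048), and none after median-ratio scaling. Of 27 other progenitor regulators, 8 were called lower, among them Egfr, the receptor of the growth factor pathway that drives stem cell division (-1.51 ± 0.34, adjusted p = 0.014), and CycE, the cyclin of entry into S phase (-1.29 ± 0.34, adjusted p = 0.023). Of that list Egfr alone was called after median-ratio scaling. Among enterocyte markers, 5 of 14 were called higher, against 3.73% of all genes. Without lacZ replicate 1, 4 were called higher and Myo31DF lower. The 15 enterocyte markers summed to 690 to 2499 TPM in knockdown and 435 to 811 TPM in lacZ libraries. Enteroendocrine markers summed to 829 to 1268 TPM in knockdown libraries, above lacZ replicates 2 to 4 and below replicate 1, and fat body and yolk markers to 14.3 to 57.1 TPM. Of 14 enteroendocrine markers tested none was called with all libraries, and 5 were called higher without lacZ replicate 1, against 396 of 8718 genes. Of 2 haemocyte markers tested, Sr-CI was called lower (log2 fold change -1.63 ± 0.35, adjusted p = 0.012). Neuron markers summed to 26.0 to 48.0 TPM in knockdown and 55.4 to 103 TPM in lacZ libraries. None of 5 tested was called with all libraries, and elav was called lower without lacZ replicate 1. What part these cells have in the member values was not tested.

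Both comparisons above share the 10-day lacZ libraries, so their member values are not independent of each other. Adar knockdown was also set against 30-day lacZ libraries, which were quantified in the same table format. That comparison comes from the same fit. Each log2 fold change in it is the difference of those in the other 2 comparisons, so it is not independent of them. The 2 groups in it differ in both genotype and age (10-day knockdown and 30-day lacZ flies), and genotype and age cannot be told apart. Adar had 7.78 to 23.5 TPM in knockdown and 19.5 to 38.1 TPM in 30-day lacZ libraries, which overlap. It was not called (log2 fold change -0.81 ± 0.31, limma adjusted p = 0.30). Of 8742 genes 0.469% were called, and none of the 10 members. Apart from spdo, the log2 fold changes of 9 members lay between -0.41 and 0.15, with adjusted p of 0.64 or more. For mira it was 0.15 ± 0.29 (adjusted p = 0.88). Of the 10 members 8 had a value below 0, as had 56.2% of all genes.

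The widest difference between Adar knockdown and 30-day lacZ libraries was in spdo, which had 48.4, 25.1, 55.3 and 21.3 TPM in knockdown libraries and 11.2, 13.4, 16.2 and 13.3 TPM in 30-day lacZ libraries. The lowest knockdown library lay above the highest lacZ library, which held for 1 of 10 members and for 3.28% of all genes, while 4.07% did not overlap and were lower, 7.36% in all. The log2 fold change was 1.31 ± 0.45, and it did not pass the adjustment over all genes (adjusted p = 0.27, and 0.12 to 0.52 over the other settings and the fits without 1 library). PH4alphaEFB, the prolyl hydroxylase gene around spdo, had 99.7, 30.2, 83.7 and 31.4 TPM in knockdown and 23.2, 29.6, 30.6 and 26.5 TPM in 30-day lacZ libraries (log2 fold change 0.93 ± 0.43, adjusted p = 0.42). Both genes were highest in knockdown replicates 1 and 3. The ratio of spdo to PH4alphaEFB was 0.485, 0.832, 0.661 and 0.678 in knockdown and 0.483, 0.451, 0.530 and 0.501 in 30-day lacZ libraries, so that knockdown replicate 1 lay within the lacZ range and the other 3 above it. The part of PH4alphaEFB reads in the spdo values was not tested.

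**Figure D4:**
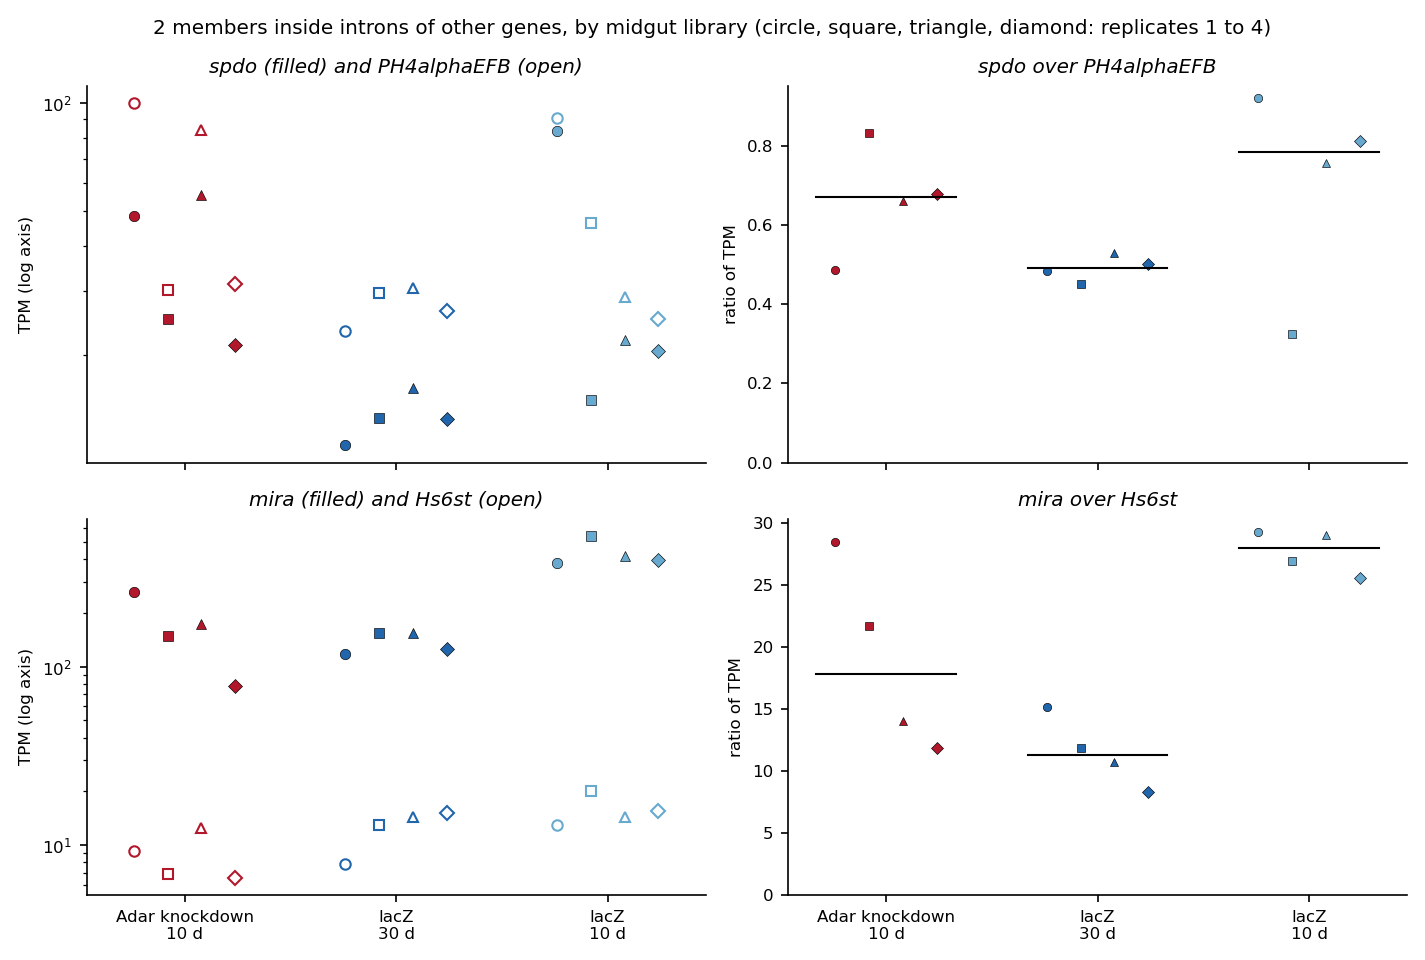
TPM of spdo and mira (filled) and of the genes around them, PH4alphaEFB and Hs6st (open), on log axes, and the ratio of the 2 TPM values in each midgut library, with a bar at the median of the group. The ratio of mira to Hs6st separates 30-day (8.31 to 15.1) from 10-day lacZ libraries (25.6 to 29.3), and spdo and PH4alphaEFB are both high in Adar knockdown replicates 1 and 3 and in lacZ 10-day replicate 1.

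The level of each member relative to esg depends little on the scaling of a library. Over the 3 midgut comparisons 27 such ratios, as log2((member TPM + 1) / (esg TPM + 1)), were compared between groups with an exact permutation test, two-sided, and 4 against 4 libraries cannot go below p = 0.0286. One ratio reached that value, spdo to esg, which averaged -2.997 ± 0.33 in Adar knockdown and -4.52 ± 0.59 in 30-day lacZ libraries (SD, n = 4 each), a difference of 1.52 (exact p = 0.0286 before adjustment for the 27 ratios). Sox100B relative to esg averaged -0.22 ± 0.40 in 30-day and -0.90 ± 0.33 in 10-day lacZ libraries, a difference of 0.69 (exact permutation p = 0.057). For mira relative to esg the difference between 30-day and 10-day lacZ libraries was -0.87 (exact permutation p = 0.11), and 30-day replicate 3 lay within the young range while the other 3 lay below it.

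Members were also compared by how they varied together across the 12 midgut libraries. Correlations of log2(TPM + 1) are given as descriptions, since they pool the 3 groups, whose means differ, and libraries share scaling. N and klu were the closest pair apart from Dl and sc, with Pearson r = 0.94 over 12 libraries and 0.94 without lacZ 10-day replicate 1, and zfh2 followed both (0.89 with N and 0.86 with klu). Dl and sc had r = 0.96, and 0.81 without that library. The values for spdo ran from r = -0.31 with Sox100B to 0.47 with sc. Without lacZ 10-day replicate 1 the sign turned for spdo with sc (-0.40) and with Dl (-0.43, against 0.41 with all libraries). Among 4391 genes with a mean of at least 5 TPM, the closest to esg were hrm (0.96), fl(2)d (0.96) and lace (0.95). The closest to mira were Rheb (0.97), Nulp1 (0.95) and Panx (0.94), to N they were Cdk12, hyd and Ino80 (0.96 to 0.97), and to klu they were sl, tth and yem (0.97 each). For zfh2 they were shg, lid and H (0.97 to 0.98), for Sox21a Hph, mir-4961 and rho-4 (0.94 to 0.95), and for Sox100B Nab2, Pex6 and Vps36 (0.91 to 0.94).

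For 2 members the closest genes hold a point of their own. The gene closest to Dl was stg, the phosphatase that starts mitosis, with r = 0.95 over 12 libraries and 0.89 without lacZ 10-day replicate 1. The stg level averaged 2.32 TPM in Adar knockdown and 3.06 TPM in 30-day lacZ libraries and stood at 38.0 TPM in that replicate. Next came Drp1 (r = 0.92) and Cndp2 (0.90), which fell to 0.77 and 0.60 without that replicate. Both Dl and stg reached a mean of 5 TPM over the midgut libraries only through that replicate, where Dl had 110 TPM. The ranking used all 12 libraries. The closest to spdo were pon, partner of numb in asymmetric division (r = 0.90), TyrRS-m (0.88) and PH4alphaEFB (0.87). Without lacZ 10-day replicate 1 these were 0.82, 0.80 and 0.84. Mean TPM of pon was 21.3 in Adar knockdown, 5.49 in 30-day lacZ and 26.4 in 10-day lacZ libraries, where it was 13.9 without replicate 1 (64.2 TPM). For PH4alphaEFB the means were 61.2, 27.5 and 47.8 TPM in the same 3 groups, and 33.5 TPM in the 10-day lacZ group without replicate 1.

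The Zn72d knockdown is set against its own control among the libraries labelled whole organism. The knockdown itself was small in the data: Zn72D had 10.6 to 17.9 TPM in knockdown and 16.9 to 18.6 TPM in control libraries (log2 fold change -0.28 ± 0.22, adjusted p = 0.47). Of 8478 genes 2.12% were called, and of the 8 members that passed the filter of a mean of at least 1 TPM none was. These libraries held 132895 to 182530 TPM of enterocyte markers, and fate genes were low in them. Fat body and yolk markers summed to 142 to 175 TPM in knockdown and 41.3 to 85.0 TPM in control libraries, and their part in the member values was not tested. A design of 3 against 3 libraries cannot give an exact permutation p below 0.1.

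In 4 of the 8 members the Zn72d groups did not overlap, against 28.4% of all genes (8.53% higher and 19.8% lower). Of the 8, 5 had a log2 fold change below 0, as had 68.4% of all genes. Sox100B had 12.03, 20.0 and 12.1 TPM in knockdown and 9.13, 7.88 and 7.78 TPM in control libraries, higher in all 3 knockdown libraries (log2 fold change 0.73 ± 0.23, adjusted p = 0.15). The level of mira was 11.2, 12.3 and 15.6 TPM in knockdown and 8.30, 10.3 and 7.96 TPM in control libraries (log2 fold change 0.50 ± 0.20, adjusted p = 0.21). Here both esg, with 9.05, 15.3 and 16.9 TPM in knockdown and 19.3, 22.8 and 18.3 TPM in control libraries, and zfh2, with 1.37, 2.55 and 2.79 against 3.81, 4.04 and 3.004 TPM, were lower in every knockdown library (log2 fold changes -0.55 ± 0.24 and -0.54 ± 0.23, adjusted p = 0.25 each). Below the filter, spdo had 1.18, 0.945 and 0.806 TPM in knockdown and 0.168, 0.205 and 0.222 TPM in control libraries, with no overlap and an adjusted p of 0.064 when no filter was applied. For the other members tested, log2 fold changes were -0.44 for klu, -0.34 for Dl, -0.22 for N and 0.31 for Sox21a, with adjusted p of 0.39 or more.

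In the E374A set the groups follow the titles, and Adar stood higher in libraries titled control than in those titled overexpression. Controls 1 and 2 had 879 and 801 TPM of Adar. Control 3, at 31.5 TPM, resembled the midgut libraries and would stand apart if the titles were exchanged too. The log2 fold change of Adar was -4.08 ± 1.31 with all libraries (limma adjusted p = 0.58) and -5.64 ± 0.18 without control 3 (limma adjusted p = 2.6e-07). Of 8840 genes 0.317% were called, and none of 9 members tested, whose log2 fold changes were all below 0, as were those of 68% of all genes. These signs follow the titles and would all turn if the titles were exchanged. These values rest on the library titled control 3. The esg level was 19.1, 22.6 and 18.1 TPM in libraries titled overexpression, and 10.1, 20.6 and 323 TPM in libraries titled control 1, 2 and 3. Likewise klu had 92.2 TPM in control 3 and 2.12 and 3.71 TPM in controls 1 and 2. With all libraries the log2 fold change was -1.03 ± 1.24 for esg, -1.46 ± 1.29 for klu, -1.04 ± 1.35 for mira and -0.72 ± 1.09 for zfh2. Without control 3, in a fit of 3 against 2 libraries, these 4 turned to 0.43, 0.08, 0.58 and 0.55, and none of 8 members tested was called. Over all genes, 320 of 8459 were called in that fit.

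Of the members tested, only Sox100B, Sox21a and spdo did not overlap between the E374A groups as titled, against 23.7% of all genes (16.1% lower and 7.58% higher). Below the filter, sc did not overlap either, at 0.420, 0.236 and 0.365 TPM (titled overexpression) and 0.454, 1.06 and 0.964 TPM (titled control). Sox21a had 6.59, 4.85 and 8.11 TPM in libraries titled overexpression and 10.9, 15.2 and 179 TPM in libraries titled control. Sox100B had 9.05, 7.82 and 7.71 TPM in libraries titled overexpression and 9.52, 21.7 and 230 TPM in libraries titled control, lower in libraries titled overexpression by a margin that is narrow against control 1. For spdo the values were 0.167, 0.203 and 0.220 against 0.379, 0.481 and 7.30 TPM. It passed the filter of a mean of at least 1 TPM only through control 3, and without that library it was not tested. Because each library titled overexpression is close to the same-numbered Zn72d control, with member TPM that differ by at most 9.76% (Dl) in any pair, the Zn72d and E374A comparisons share those libraries and their values are not independent.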

How the data were processed

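The authors deposited 1 gene table per library with TPM, FPKM and coverage columns, per the file headers. Per the submitters' processing notes, the tools were STAR 2.7.1a (alignment) and StringTie (quantification), with the dm6 build. The sources used here give neither settings nor annotation release. In 11 tables the deposited TPM sum to 1000000. In 13 assembled tables (the 12 midgut libraries and the library titled E374A control 3) the deposited TPM column is a signal in which assembled loci sum to 1000000 and annotated genes are listed again, and its values were used as deposited. Coverage, a deposited signal of read depth per base, served to compare libraries and estimate depth. The deposited FPKM served as an alternative. With TPM and not counts as input, a count test was not run, and precision is given only by the spread between libraries. The coverage column of the assembled tables holds a few values slightly below 0.

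From these, log2(TPM + 1) was tested with limma 3.58.1 in R 4.3.3 (eBayes with trend and robust variances, statmod 1.5.0) over genes with a mean of at least 1 TPM, two-sided, adjusted over all genes by Benjamini-Hochberg, called under 0.05. Fold changes on this scale understate the change of low genes. One fit held all 3 midgut groups, and the Zn72d and E374A sets had a fit each. Other steps used scipy 1.17.1, numpy 2.4.6 and pandas 2.3.3 under Python 3.11.15, and figures matplotlib 3.10.9. In simulated data with no library standing apart, the fit recovered 63.6% to 72.3% of 2-fold changes in the midgut comparisons. It recovered 45.7% of them in the Zn72d set and 55.2% in the E374A set. Of 4-fold changes it recovered 98.9% or more. A member that was not called may therefore still have changed. Names were matched through the tables' own pairs of identifier and name (17125 of 17137 names in assembled tables) and the Ensembl annotation of BDGP6 whose member coordinates equal those in the tables.

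The members and gene lists were chosen with earlier results of these data known. The rule for named genes took all members, up to 2 called genes per list and direction with a mean of at least 5 TPM in the higher group (or 2 abundant ones), and the 3 genes most correlated with each member. The text names a part of these. Host genes, Thd1, brp, elav, Fbp1, Yp3, Myo31DF, par-6, fng, Nedd4, pros and Tk were named after their values were seen. Alternatives covered the pseudocount, the low-value filter, scaling, the FPKM column, the variance model, the replicate block and leaving out each library.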

Additional observations from a re-analysis of the deposited data

Results flagged for a closer look

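In the groups of 4 midgut libraries, 30 sets of member values were examined for a library far from the other 3. This marked 3 values, all in replicate 1 of the 10-day lacZ group. They are Dl at 110 TPM against 3.23 to 7.90 TPM, spdo at 83.6 TPM against 14.9 to 21.9 TPM and sc at 26.7 TPM against 0.947 to 2.49 TPM in the other 3 replicates. Chance marks about 1 in 20 such groups, and 3 members in 1 library share that library, so they are not independent. Enteroendocrine, fat body and yolk markers were also high in it, as given above. Visceral muscle markers summed to 26.7 TPM in it against 5.94 to 7.33 TPM in the other 3 replicates, and tracheal markers to 10.7 TPM against 2.45 to 5.18 TPM. Their part in these values was not tested.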

How the results depend on the processing

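Dl and sc stood at a few TPM in most libraries, and how depth bears on them was not tested. The aged minus young change of mira and the Adar knockdown minus young change of mira kept direction and call in every setting and every fit without 1 library. For 30-day against 10-day lacZ libraries the count of called genes, 1715, became 1089 without the low-value filter, 776 with median-ratio scaling, 1096 with FPKM and 803 with 10-day replicates 3 and 4 averaged. With only both groups in the fit, 1893 of 8633 genes were called, and 2 members, mira and zfh2. For Adar knockdown against 10-day lacZ libraries the count, 1721, became 1047 without the filter, 560 with median-ratio scaling, 1041 with annotated genes rescaled, 669 with FPKM, 814 with only both groups and 439 with replicates 3 and 4 averaged. The members called, 4, became 1 without the filter, 1 with median-ratio scaling, 2 after rescaling, 2 with FPKM, 1 with only both groups and 1 with replicates averaged. Further settings were chosen after seeing the data. Leaving out 10-day replicate 1 and averaging 3 and 4 gave 138 and 186 called genes in these 2 comparisons, and 1 member, mira, in each. Median-ratio scaling without replicate 1 gave 650 and 719 genes. The members called were mira in the first comparison, and mira and spdo in the second (log2 fold change of spdo 1.21, limma adjusted p = 0.025). Against 30-day lacZ libraries the Adar knockdown count, 41, became 21 without the filter, 10 at a mean of at least 5 TPM and 26 with FPKM. The Zn72d count, 180, became 88 without the filter and 94 at 5 TPM. The E374A count, 28, became 45 without the filter, 62 with median-ratio scaling and 44 with FPKM. Taken relative to the median tested gene in place of esg, 4 of 27 ratios fell under 0.05. The causes were not tested.

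Without 1 library each, called genes ranged from 741 to 1852 (30-day against 10-day), 425 to 2090 (Adar knockdown against 10-day), 14 to 65 (against 30-day), 54 to 591 (Zn72d) and 0 to 320 (E374A), and called members from 1 to 3, 1 to 4, 0 to 0, 0 to 0 and 0 to 0. Under-0.05 ratios ranged from 0 to 1. In the 30-day comparison the counts were 741 and 810 without 10-day replicates 3 and 4, and 784, 849 and 963 without 30-day replicates 3, 2 and 4. For Adar knockdown against 10-day they were 429 and 425 without 10-day replicates 3 and 4, and the E374A count of 320 came without control 3. Directions turned in the following results, none of them called. Sox100B in 30-day against 10-day libraries was 0.21 with median-ratio scaling, 0.15 with that scaling and without replicate 1, 0.014 with FPKM and -0.18 to 0.023 without 1 library. There sc was 0.043 without replicate 1 and with 3 and 4 averaged, and 0.11 with median-ratio scaling and without replicate 1. Without 1 library, N ranged from -0.35 to 0.039 (Zn72d), mira from -0.12 to 0.47, Dl from -0.64 to 0.09, N from -0.27 to 0.09, klu from -0.15 to 0.19 and sc from -0.32 to 0.10 (all 5 Adar knockdown against 30-day), and in the E374A set esg from -2.004 to 0.43, klu from -2.37 to 0.078, mira from -1.86 to 0.58 and zfh2 from -1.51 to 0.55. In Adar knockdown against 30-day, N was also 0.0083 with median-ratio scaling and 0.052 with FPKM, and klu 0.067, 0.055 and 0.11 with median-ratio scaling, rescaled genes and FPKM. The log2 ratio to esg ranged from -0.49 to 0.32 for spdo (30-day against 10-day) and from -0.35 to 0.17 for Sox100B (Adar knockdown against 30-day).

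Whether replicate numbers pair the libraries was not settled, as so few pairs cannot exclude it. Deviations of same-numbered libraries correlated at -0.08 to 0.22 (30-day and 10-day), -0.30 to 0.22 (Adar knockdown and 10-day), -0.07 to 0.05 (Zn72d) and -0.01 to 0.17 (E374A). Their means were 0.12, -0.09, -0.01 and 0.08 in that order. Libraries with different numbers had means of -0.04, 0.03, 0.005 and -0.04. With the replicate block the Zn72d count was 420, against 180 without it, and the E374A count 9, against 28. The members called in each comparison were the same as without the block.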
